A study of Mus musculus with 12 samples.

Results

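Livers of mice given low-dose penicillin on normal chow were compared with livers of control mice on the same chow. The samples were taken by their titles, 3 livers per group, so the comparison uses 6 of the 12 arrays of the series. Penicillin chow mice were male mice of the inbred strain C57BL6J whose drinking water held penicillin at 6.7 mg/L, and control chow mice were male C57BL6J mice without antibiotics. Both groups ate chow with 13.5% of its energy as fat throughout, and all livers were taken at 30 weeks of age. The other 6 arrays come from male C57BL6J mice of the same age that were moved at 17 weeks to a diet with 45% of energy as fat, 3 with penicillin (penicillin high-fat) and 3 without (control high-fat). The labels give no mutation or transgene in any group, and the age at which penicillin began is not given in the sources used here. Each array holds 1 liver, and single arrays carry their replicate number, as in penicillin chow 1. The labels call the replicates biological, and cage, litter and hybridisation batch were not used here.

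Penicillin acts on bacteria, and a dose this far below treatment level is used to alter the bacteria of the gut rather than to clear an infection. Blood from the gut reaches the liver through the portal vein, where resident macrophages (Kupffer cells) and sinusoidal endothelial cells meet bacterial products, while hepatocytes make up most of the tissue and most of its RNA. The design asks whether such a dose alters hepatic gene expression in mice that are not fed a high-fat diet.

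Expression is given as the log2 value of a gene's probe set, and differences are penicillin minus control, with n = 3 mice in each group, and ± gives the fitted standard error of a difference. Of 18193 genes with a probe set, 13788 lay above log2 5.0 on at least 3 of the 12 arrays and were tested, and 4405 were not. Values near or below 5.0 cannot be told from background, and differences that start there are compressed. Adjusted p-values are limma's after Benjamini-Hochberg adjustment over the 13788 genes. The median difference over all genes tested was -0.01, with 6594 genes positive and 7194 negative, and the median standard error was 0.104.

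The hepatocyte genes Alb, which encodes albumin, and Hnf4a, a transcription factor of hepatocyte identity, were bright on all 6 chow arrays. Alb read between 14.98 and 15.03 in every liver, with a difference of -0.01 ± 0.06. Hnf4a read 12.64, 12.54 and 12.53 in penicillin chow livers, against 12.41, 12.43 and 12.24 in control chow livers. The 14 hepatocyte markers tested had a median difference of 0.02, 8 of them positive. Arrays of the same group correlated at 0.985 to 0.995 over probe sets. The 18S ribosomal control signal was 13.02, 11.76 and 11.77 on the penicillin chow arrays, against 13.11, 13.17 and 13.00 on the control chow arrays, so penicillin chow 2 and 3 stood apart on it. Penicillin chow 1 stood apart in another way: 30 genes on it lay at least 1 log2 unit above all 11 other arrays and 8 lay that far below, against 0 to 1 above and 0 to 4 below on the other chow arrays. For several lists whose median moves without these arrays, the median without them is also given. A median given once may move as well, and one near 0 may change sign.

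Rcan2 rose in penicillin chow livers. It encodes a regulator of calcineurin, the calcium-dependent phosphatase that moves NFAT transcription factors into the nucleus. Rcan2 read 6.75, 7.02 and 7.05 in penicillin chow livers, against 6.14, 6.03 and 6.11 in control chow livers. All 3 penicillin livers lay above all 3 controls. The difference was 0.85 ± 0.10, with a 95% confidence interval of 0.62 to 1.07 and a fold of 1.80 (adjusted p = 0.0470). Rcan2 was the 1 gene higher among 13788, or 0.00725% of those tested, and 0 genes, or 0%, were lower. At an unadjusted p under 0.05, 381 genes (2.76%) were higher and 670 (4.86%) lower. The call held in 3 of 12 fits made with 1 array omitted: those without penicillin chow 1, control high-fat 1 or control high-fat 3. It was lost without penicillin chow 2 or 3, without any 1 control chow array, without control high-fat 2 and without any 1 penicillin high-fat array, with adjusted p between 0.0612 and 0.220. A further probe set of Rcan2 lies below the filter and differed by 0.21.

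Of the other genes of the calcineurin pathway, 0 passed the threshold. Of 18 genes of calcineurin and NFAT signalling 13 were tested, and their median difference was -0.00. Rcan1, the other tested regulator of the same family, read 9.57, 8.36 and 8.74 in penicillin chow livers, against 8.46, 8.69 and 8.30 in control chow livers, and the groups overlapped. Ppp3cb, a catalytic subunit of calcineurin, read 8.91, 8.80 and 8.76 in penicillin chow livers, against 9.08, 9.11 and 8.98 in control chow livers. Ppp3cc, another catalytic subunit, differed by -0.33 ± 0.12. Neither passed the threshold (adjusted p = 0.536 and 0.616), although their groups did not overlap. In the list of 13, groups did not overlap for 2 higher members, Rcan2 among them, and 2 lower members. Each is 15.4%, against 4.79% of all genes higher and 7.04% lower. Other probe sets of Ppp3cb stood between -0.05 and 0.12. The immunophilin Fkbp1a, which inhibits calcineurin when bound to the drug tacrolimus, differed by 0.15 ± 0.10, and the regulatory subunit Ppp3r1 by 0.11 ± 0.08. The remaining 7 members, among them Ppp3ca and Nfatc1 to Nfatc4, lay between -0.03 and 0.09.

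The gene nearest the threshold after Rcan2 was Ifi27l2a, an interferon-inducible gene. It read 6.93, 7.02 and 6.94 in penicillin chow livers, against 7.53, 7.67 and 7.73 in control chow livers. The lowest control lay above the highest penicillin liver by more than the whole range of either group. Its difference was -0.68 ± 0.09 (adjusted p = 0.0583). Pycard, the adaptor that links inflammasome sensors to caspase-1, read 6.25, 6.23 and 6.18 in penicillin chow livers, against 6.72, 6.81 and 6.60 in control chow livers. It differed by -0.50 ± 0.08, while its 2 other probe sets, both dim, stood at 0.04 and -0.06. Sox18, an endothelial transcription factor, read 6.75, 6.78 and 6.70 in penicillin chow livers, against 7.16, 7.14 and 7.22 in control chow livers. Clec14a, an endothelial C-type lectin, read 6.66, 6.82 and 6.76 in penicillin chow livers, against 7.51, 7.61 and 7.40 in control chow livers. For each of these genes the groups stood apart with little spread inside them, yet the adjusted p was 0.116 for Pycard and Clec14a and 0.190 for Sox18. A further probe set of Clec14a stood at -0.37.

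**Figure D1:**
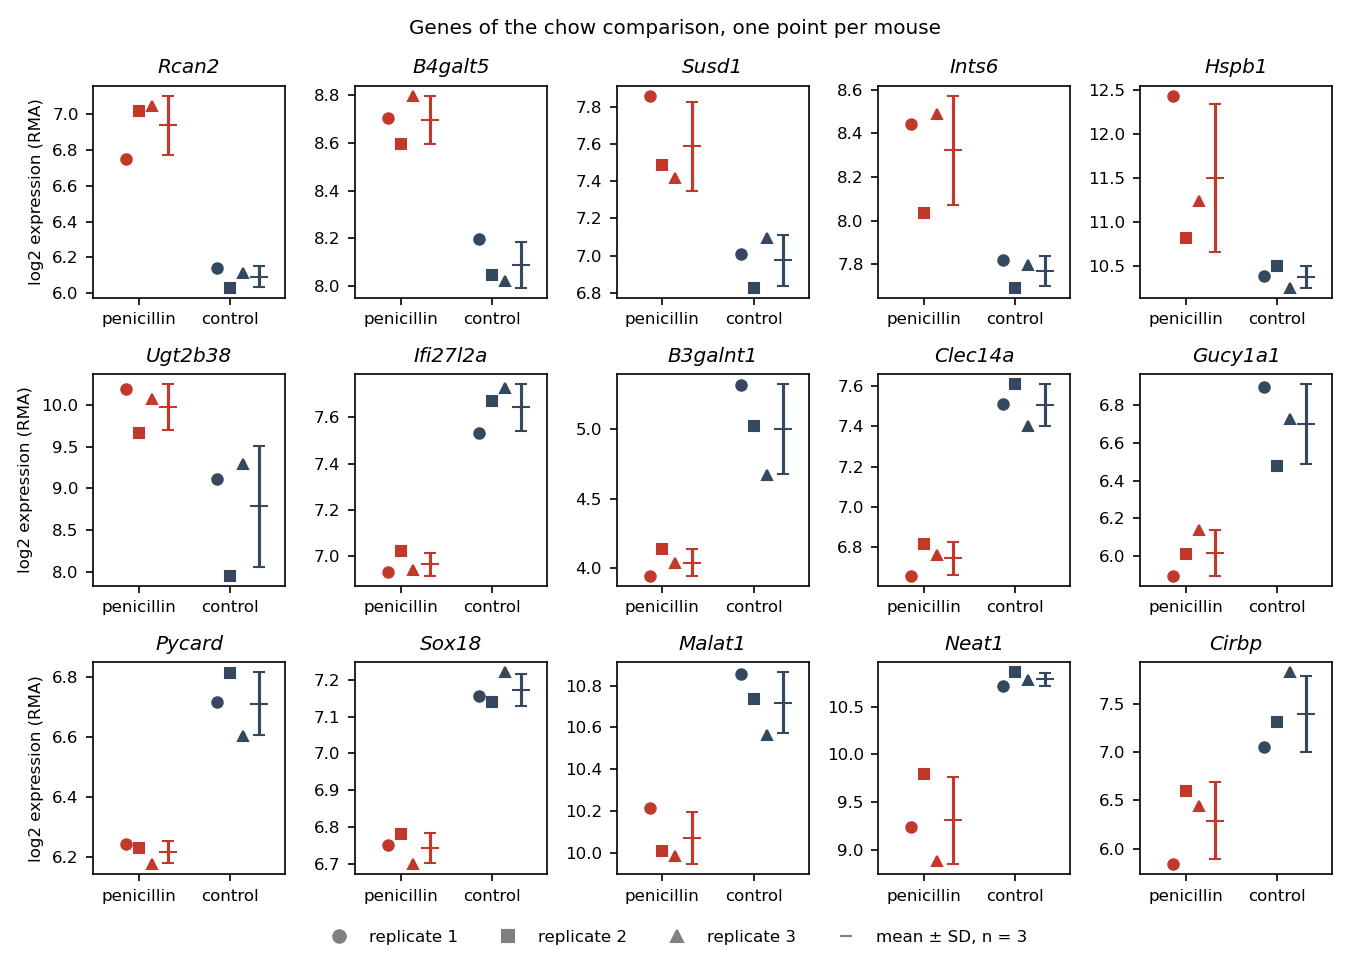
Log2 expression of single genes on each chow array (points), with penicillin chow livers left of control chow livers and the mean ± SD beside them (n = 3). Rcan2 is the gene past the threshold, with penicillin livers between 6.75 and 7.05 and controls between 6.03 and 6.14.

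Groups of 3 did not overlap for 660 genes that were higher in penicillin chow livers (4.79% of those tested) and for 970 that were lower (7.04%). An unadjusted p under 0.01 as well was met by 74 higher and 170 lower genes, and 17 genes differed by 1 log2 unit or more in either direction. The genes described next are those with the largest differences that met both conditions, and none but Rcan2 passed the threshold.

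Ugt2b38, a glucuronosyltransferase, stood highest by size. It read 10.19, 9.67 and 10.07 in penicillin chow livers, against 9.11, 7.94 and 9.29 in control chow livers, a difference of 1.20 ± 0.38. Its spread in the controls, led by a low control chow 2, was larger than the gap between the groups. Slc5a3, the sodium-coupled myo-inositol transporter, read 7.95, 7.73 and 8.05 in penicillin chow livers, against 7.39, 6.94 and 7.34 in control chow livers. Its difference was 0.69 ± 0.16, and its other probe sets stood at 0.21 and 0.09. B4galt5, a galactosyltransferase that makes lactosylceramide, read 8.70, 8.60 and 8.80 in penicillin chow livers, against 8.20, 8.05 and 8.02 in control chow livers. The groups were well apart, with a difference of 0.61 ± 0.11 (adjusted p = 0.190), and a dim further probe set stood at -0.08. Susd1, a gene of a sushi-domain protein, read 7.86, 7.49 and 7.42 in penicillin chow livers, against 7.01, 6.83 and 7.09 in control chow livers.

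Other higher genes were less even. The zinc transporter gene Slc39a6 differed by 0.79 ± 0.25, with 6.89 in penicillin chow 1 and 5.88 and 6.23 in the other penicillin livers, while 3 further probe sets stood between -0.06 and 0.15. Tpm2, a tropomyosin, differed by 0.67 ± 0.19 with other probe sets at 0.75, 0.11 and 0.61. Ints6, a subunit of the Integrator complex that processes small nuclear RNAs, differed by 0.55 ± 0.13, with other probe sets between 0.01 and 0.17. Tent5a, a poly(A) polymerase, differed by 0.73 ± 0.23, and Tmem267 by 0.72 ± 0.21. The homeobox gene Lhx6 differed by 0.65 ± 0.21, with its other probe set at -0.01. Rbm12b1 and Rundc3b had control means below the filter, and differed by 0.68 ± 0.15 and 0.60 ± 0.16.

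Among lower genes, B3galnt1, which encodes the glycosyltransferase that makes globoside, had the smallest p after Rcan2 and Ifi27l2a. It read 3.95, 4.14 and 4.03 in penicillin chow livers, against 5.31, 5.02 and 4.67 in control chow livers, a difference of -0.96 ± 0.14 (adjusted p = 0.116). All its penicillin values lie below the filter. Lpl, lipoprotein lipase, which frees fatty acids from circulating triglyceride, read 9.19, 9.02 and 8.73 in penicillin chow livers, against 9.63, 9.90 and 9.73 in control chow livers. Its difference was -0.77 ± 0.21, and a further probe set stood at -0.87. Gucy1a1, a subunit of the soluble guanylate cyclase that senses nitric oxide, read 5.89, 6.01 and 6.14 in penicillin chow livers, against 6.90, 6.48 and 6.73 in control chow livers. Its difference was -0.69 ± 0.11 (adjusted p = 0.116), but its other probe sets stood at 0.10 and -0.11.

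Further genes were lower by about as much. Clec7a, or dectin-1, the receptor of myeloid cells for fungal glucans, read 7.68, 7.50 and 7.48 in penicillin chow livers, against 8.05, 8.36 and 8.34 in control chow livers. Atp6v0d2, a subunit of the vacuolar proton pump, read 6.14, 6.56 and 6.20 in penicillin chow livers, against 7.36, 7.47 and 6.70 in control chow livers. Scara3, a scavenger receptor family member, differed by -0.83 ± 0.23. In Clec7a the penicillin livers were close to each other and below every control, whereas in Atp6v0d2 control chow 3 came near the penicillin livers. Limd2 differed by -0.75 ± 0.20, with other probe sets from -0.51 to -0.14, the zinc finger gene Zfp503 by -0.72 ± 0.17, with its other probe set at -0.14, Ccdc162 by -0.69 ± 0.12 and the RIKEN transcript 4833411C07Rik by -0.74 ± 0.17.

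Gene lists were used to describe groups of genes. Over all genes tested the median was -0.01, and the quartiles were -0.09 and 0.08. The lists that stood farthest below them were Kupffer cell and macrophage markers, MHC class II genes, B cell markers and stellate cell markers, and heat shock chaperones stood farthest above. Outside the calcineurin list, 0 members of any list passed the threshold.

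**Figure D2:**
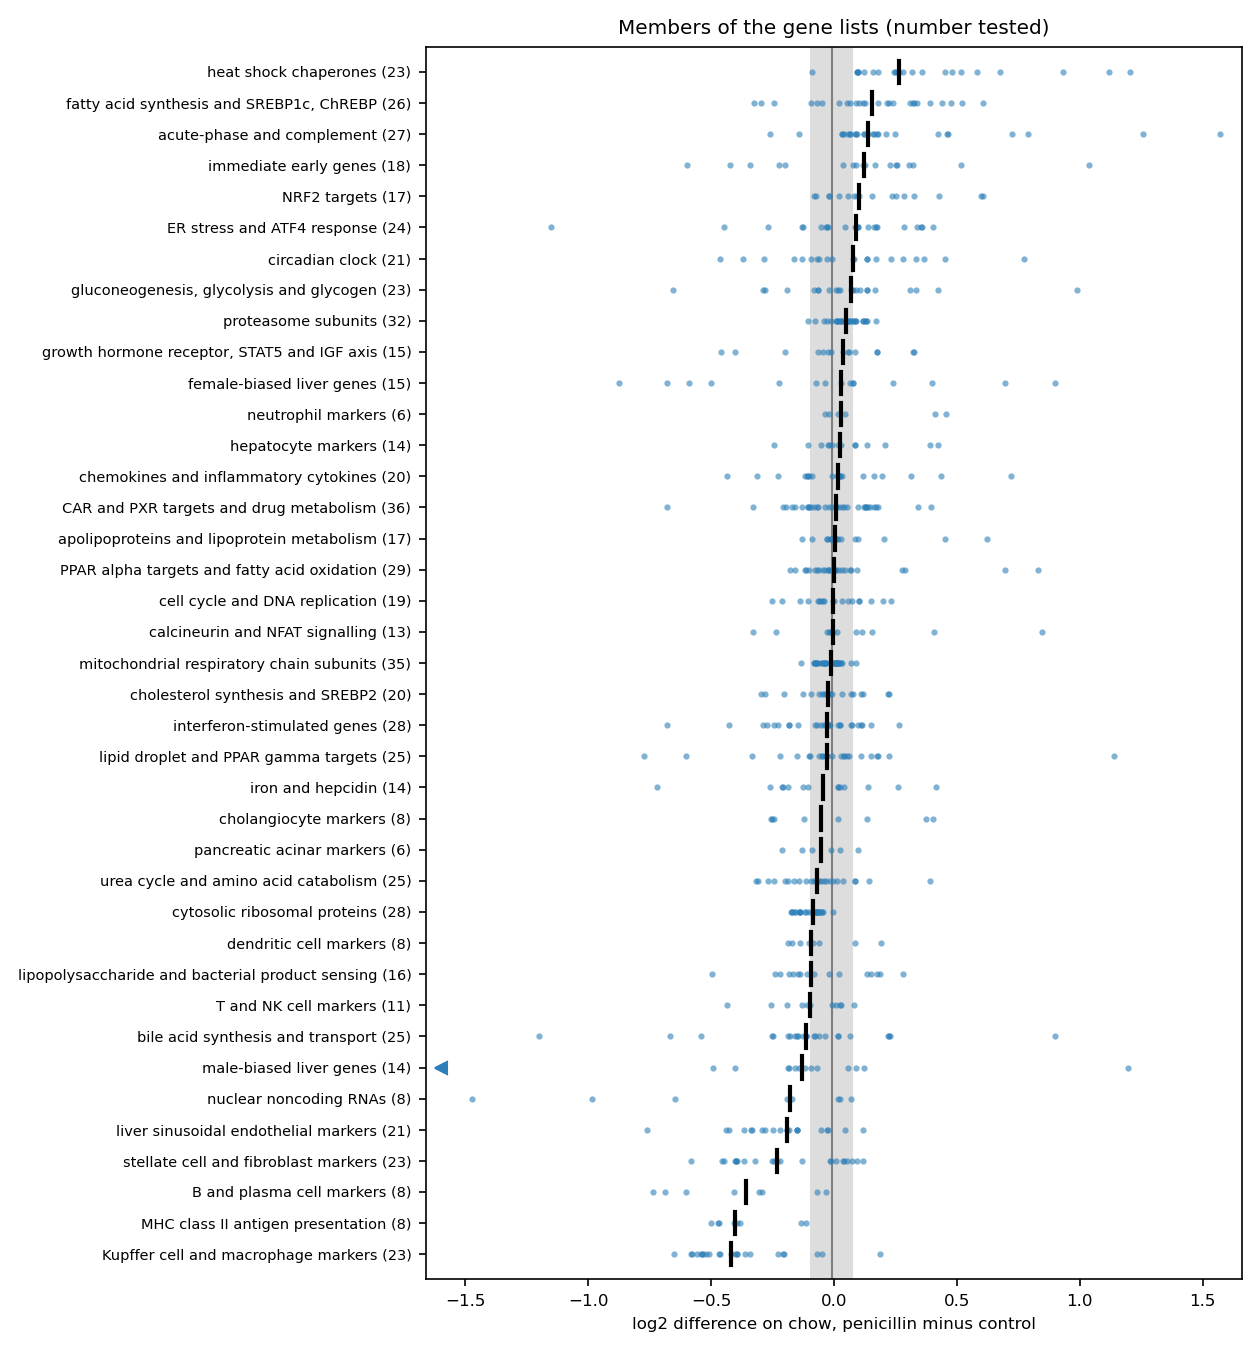
Difference in log2 expression on chow, penicillin minus control, for every tested member (points), for lists with at least 6 tested members. Black bars are list medians, the gray line and band are the median and the range between the quartiles of all genes tested, and a triangle marks Moxd1 beyond the axis. Macrophage markers (median -0.42) and MHC class II genes (-0.40) lie left of 0, and heat shock chaperones (0.26) lie right of it.

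Heat shock chaperones stood higher in penicillin chow livers. These proteins fold or hold other proteins, and their genes are induced by heat shock factors when unfolded protein accumulates. Of 23 tested members 22 were positive, with a median of 0.26. The groups did not overlap for 5 (21.7%), all higher, against 4.79% of all genes, and 10 were higher at an unadjusted p under 0.05, against 2.76% of all genes. Hspb1, a small heat shock protein, read 12.43, 10.81 and 11.23 in penicillin chow livers, against 10.38, 10.49 and 10.25 in control chow livers. Its 3 penicillin livers lay above every control, penicillin chow 1 far above the others. The difference was 1.12 ± 0.31 (adjusted p = 0.497), and a further probe set stood at 1.21. Hspa1b, the inducible Hsp70, was named after its values were seen. It read 11.43, 10.37 and 11.24 in penicillin chow livers, against 10.001, 9.95 and 9.48 in control chow livers, a difference of 1.20 ± 0.49 (adjusted p = 0.618), with other probe sets at 1.34 and 1.33. Hspa1b and Hspa1a are near-identical copies whose probe sets may share signal, and the dimmer Hspa1a differed by 0.93 ± 0.70.

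Cytosolic Hsp90 and its helpers followed with smaller differences. Hsp90aa1, the inducible Hsp90, read 12.94, 12.46 and 12.66 in penicillin chow livers, against 12.38, 12.30 and 11.93 in control chow livers. It differed by 0.48 ± 0.14 (adjusted p = 0.510), with other probe sets from -0.12 to 0.52. Hspa4l, an Hsp110-family exchange factor of Hsp70, read 8.86, 8.17 and 8.25 in penicillin chow livers, against 8.01, 7.84 and 7.40 in control chow livers. In both genes the groups stood apart and control chow 3 was the lowest liver. Hsph1, also of the Hsp110 family, differed by 0.58 ± 0.23, Stip1, the co-chaperone that joins Hsp70 to Hsp90, by 0.26 ± 0.11, and the Hsp40 gene Dnaja1 by 0.25 ± 0.12. The mitochondrial chaperones Hspd1, Hspe1 and Hspa9 differed little, at 0.10, 0.10 and 0.12. Hspa9 was still among the members whose groups did not overlap. It read 11.85, 11.90 and 11.91 in penicillin chow livers, against 11.79, 11.69 and 11.82 in control chow livers.

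Cirbp, which encodes an RNA-binding protein that in cultured cells is induced by mild cold and reduced by heat, stood at the other end. It read 5.84, 6.59 and 6.44 in penicillin chow livers, against 7.06, 7.31 and 7.83 in control chow livers. Every penicillin liver lay below every control, and the difference was -1.11 ± 0.25 (adjusted p = 0.349). The list's score, the mean over its members of the difference from their mean over all 12 arrays, was 0.21, -0.26 and 0.08 in penicillin chow livers, against -0.24, -0.30 and -0.56 in control chow livers. Penicillin chow 2 thus lay between control chow 1 and 2, and control chow 3 was lowest. The list's median was 0.24 without penicillin chow 1, 0.17 without control chow 3, and 0.39 without the low-18S arrays. That last fit keeps penicillin chow 1 as the only penicillin chow liver, so its value compares that liver with the controls. Body temperature, the time from death to freezing and the handling of the tissue were not recorded in the sources used here, and their part was not tested.

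**Figure D3:**
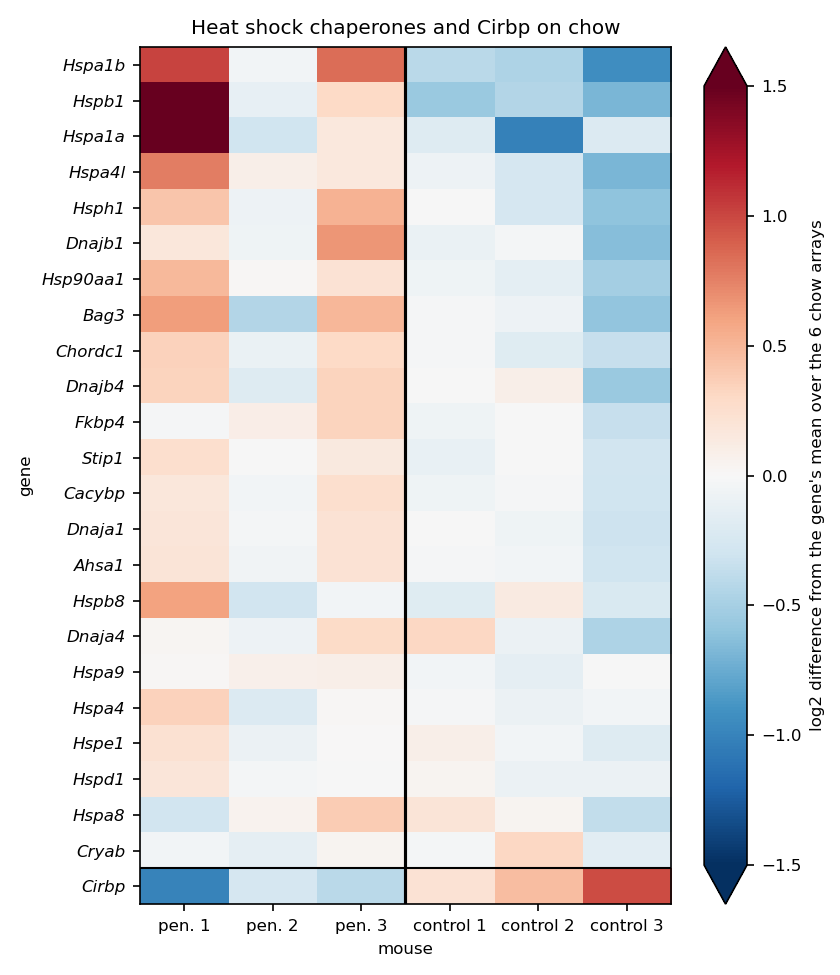
Heat map of heat shock chaperones and Cirbp (rows) on the chow arrays (columns, penicillin livers left of control livers), coloured by the log2 difference from each gene's mean over the 6 chow arrays. Hspb1 and Hspa1b lie above the controls in all 3 penicillin livers and Cirbp below them.

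The promoters of 3 of these genes are shown because they carry a part of the pattern that heat shock factors bind, pairs of inverted GAA units. Each sequence is the 250 bases before the gene's start in RefSeq (build GRCm38.p6), 5′ to 3′ on the gene's strand, with matches to GAANNTTC in capitals.
Hspb1: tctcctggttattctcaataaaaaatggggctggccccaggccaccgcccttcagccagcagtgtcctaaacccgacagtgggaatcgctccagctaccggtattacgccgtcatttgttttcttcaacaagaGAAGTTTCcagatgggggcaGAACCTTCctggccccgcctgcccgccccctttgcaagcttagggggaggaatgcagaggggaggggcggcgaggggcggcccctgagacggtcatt
Hspa1b: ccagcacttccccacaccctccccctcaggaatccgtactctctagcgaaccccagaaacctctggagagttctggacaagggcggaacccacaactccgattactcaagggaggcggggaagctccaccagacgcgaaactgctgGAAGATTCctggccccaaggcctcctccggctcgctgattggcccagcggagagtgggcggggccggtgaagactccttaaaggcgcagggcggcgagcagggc
Dnaja1: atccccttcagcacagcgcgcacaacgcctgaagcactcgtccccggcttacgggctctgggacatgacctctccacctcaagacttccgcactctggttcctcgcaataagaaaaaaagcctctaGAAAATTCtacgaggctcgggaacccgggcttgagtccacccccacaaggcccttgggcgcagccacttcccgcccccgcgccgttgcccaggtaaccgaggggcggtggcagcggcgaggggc
These lie at chr5:135887669-135887918 on the plus strand, chr17:34959239-34959488 on the minus strand and chr4:40722218-40722467 on the plus strand. The Hspb1 matches begin 117 and 97 bases before the start, that of Hspa1b 104 bases and that of Dnaja1 124 bases before it. Both GAANNTTC and TTCNNGAA were searched. Each reads the same on both strands, and the letters of one can overlap the other. Of 19 list members with an entry, 10 held either pattern in any of their promoters (52.6%). This compares with 1371 of 11097 tested genes with an entry (12.4%) and 3932 of all 27025 genes with an entry (14.5%). Counted by promoter, the shares were 42.3% for the list, 10.3% for genes tested and 12.8% for all 32851 promoters. Entries for Hspa8, Hsp90aa1, Cryab and Hspa9 were not used here. Matches occurred at large and small differences, and so did their absence. Hspd1 and Hspe1, at 0.10 each, held matches, as did Hspb1 at 1.12. Hspa4l at 0.68, Dnajb1 at 0.52 and Hspa4 at 0.10 held none. Whether the pattern bears on the differences was not tested. A match is a run of letters and not a measured binding site.

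Markers of Kupffer cells and macrophages stood lower in penicillin chow livers. All 23 members were tested, 22 were negative, the median was -0.42, and the groups did not overlap for 7 (30.4%), all lower, against 7.04% of all genes. At an unadjusted p under 0.05 there were 15 lower, against 4.86% of all genes, and 0 higher. In bulk liver, fewer macrophages and less RNA per macrophage cannot be told apart. Mpeg1, or perforin-2, a pore-forming protein of macrophages, read 9.70, 9.57 and 9.32 in penicillin chow livers, against 10.08, 10.33 and 9.91 in control chow livers. Vsig4, the complement receptor of Kupffer cells, read 9.997, 9.59 and 9.43 in penicillin chow livers, against 10.19, 10.21 and 10.23 in control chow livers. Clec4f, a lectin found on mouse Kupffer cells, read 9.75, 9.45 and 9.27 in penicillin chow livers, against 9.82, 9.83 and 9.90 in control chow livers. In all 3 genes every penicillin liver lay below every control, and penicillin chow 1 lay nearest to the controls.

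Further markers of the list gave differences of like size. Lyz2, lysozyme, read 10.13, 9.53 and 9.34 in penicillin chow livers, against 10.11, 10.31 and 10.25 in control chow livers, so penicillin chow 1 lay within the control range. Cd5l, a secreted protein of tissue macrophages, differed by -0.54 ± 0.17, and Cybb, the catalytic subunit of the phagocyte oxidase, by -0.51 ± 0.15. None of these differences passed the threshold, with adjusted p from 0.349 for Mpeg1 to 0.616 for Clec4f. The list's score was -0.14, -0.58 and -0.78 in penicillin chow livers, against -0.18, -0.13 and -0.04 in control chow livers. Penicillin chow 1 thus lay within the controls, and the other 2 livers, those with a low 18S signal, lay below them. The list's median was -0.61 without penicillin chow 1 and -0.31 after adjusting for the 18S signal. The median was -0.05, with 10 of 23 members positive, when the arrays of low 18S signal were left out, which leaves 1 penicillin chow liver. Penicillin high-fat 2, whose 18S signal was likewise low at 11.81, had a macrophage score of 0.33, between 0.47 and -0.09 in the other penicillin high-fat livers and level with control high-fat livers at 0.41, 0.41 and 0.33. The part of the 18S signal in the chow result was not tested.

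Antigen presentation genes lay lower by about as much. All 8 tested MHC class II genes were negative, with a median of -0.40. The groups did not overlap for 5 (62.5%), all lower, against 7.04% of all genes. H2-Aa, the alpha chain of the class II molecule, read 10.21, 10.23 and 9.95 in penicillin chow livers, against 10.54, 10.65 and 10.62 in control chow livers. Cd74, the invariant chain that escorts class II molecules to the endosome, read 8.37, 8.02 and 8.01 in penicillin chow livers, against 8.53, 8.53 and 8.57 in control chow livers. Both genes were lower in each penicillin liver than in any control. The list's score was -0.22, -0.29 and -0.46 in penicillin chow livers, against 0.00, 0.04 and 0.07 in control chow livers, and these did not overlap. Its median was -0.25 when the low-18S arrays were left out. H2-Ab1, the beta chain, differed by -0.47 ± 0.20, H2-DMa, which loads peptide onto class II, by -0.50 ± 0.19 with its other probe set at -0.10, and the endosomal protease Ctss by -0.40 ± 0.16, with overlapping groups. Adjusted p was 0.616 to 0.618 for these 5 genes.

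**Figure D4:**
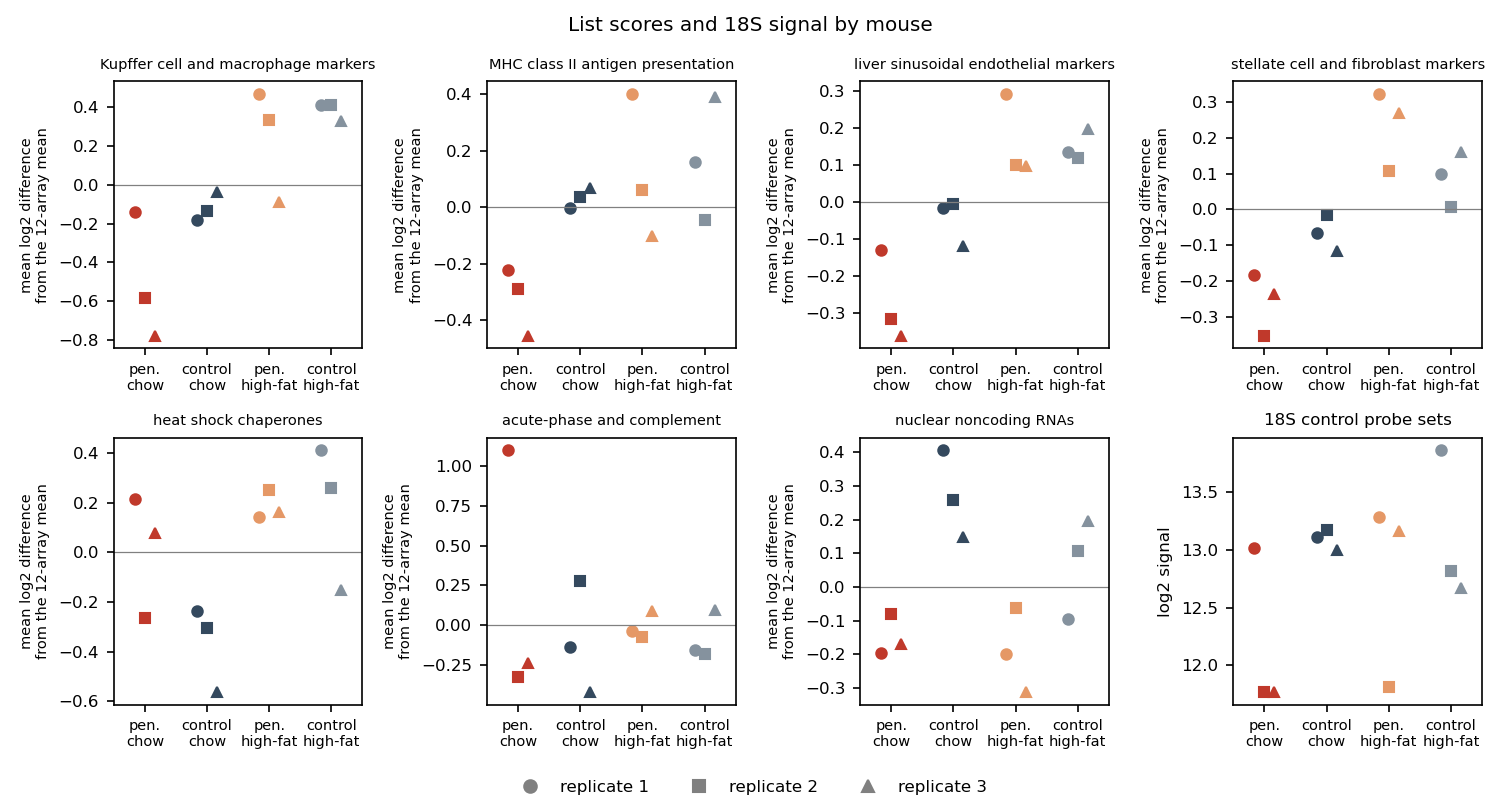
Scores of 7 gene lists on each array (mean of the members' differences from their mean over all 12 arrays, in log2 units) and the log2 signal of the 18S control probe sets, for penicillin chow, control chow, penicillin high-fat and control high-fat livers. Marker shapes are replicate numbers. The macrophage score of penicillin chow 1 (-0.14) lies among the controls, and the acute-phase score of the same liver (1.10) lies above every other liver.

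Sinusoidal endothelial markers had 19 negative members of 21 and a median of -0.19. The groups did not overlap for 9 (42.9%), all lower, against 7.04% of all genes. Oit3 read 8.48, 8.34 and 8.21 in penicillin chow livers, against 8.74, 8.79 and 8.53 in control chow livers. Stab2, a scavenger receptor that clears hyaluronan from blood, read 8.63, 8.86 and 8.63 in penicillin chow livers, against 9.05, 9.07 and 8.99 in control chow livers. The groups stood apart in both. Fcgr2b, the inhibitory Fc receptor of these cells, differed by -0.37 ± 0.11 and the receptor gene Gpr182 by -0.29 ± 0.09. The endothelial score was -0.13, -0.32 and -0.36 in penicillin chow livers, against -0.02, -0.01 and -0.12 in control chow livers. The list's median was -0.18 without the low-18S arrays, with 13 of 21 members negative and 8 positive. It was -0.27 without penicillin chow 1, with all 21 negative.

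Stellate cells store vitamin A and make the collagen matrix of the liver. Their markers and those of fibroblasts had 16 negative members of 23 and a median of -0.23. The groups did not overlap for 8 (34.8%), all lower, against 7.04% of all genes. Dcn, the proteoglycan decorin, read 11.36, 11.24 and 11.58 in penicillin chow livers, against 11.73, 12.02 and 11.80 in control chow livers. Col3a1, a fibrillar collagen, read 7.73, 8.24 and 8.48 in penicillin chow livers, against 8.72, 8.90 and 8.57 in control chow livers, with a dim further probe set at 0.06. Penicillin livers lay below the controls in both, in Col3a1 by a narrow margin. Bgn (biglycan), Ecm1 and Ngfr differed by -0.40 ± 0.13, -0.37 ± 0.12 and -0.32 ± 0.10, with 2 further probe sets of Ngfr at 0.10 and -0.00. Col1a1, the main fibrillar collagen of scar, was dim and level at -0.02 ± 0.11. The list's score was -0.18, -0.35 and -0.24 in penicillin chow livers, against -0.06, -0.01 and -0.12 in control chow livers. Its median was -0.11 without the low-18S arrays and -0.10 with 18S as a covariate.

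The 8 tested markers of B and plasma cells were all negative on their brightest probe sets, with a median of -0.36. Other probe sets of Ighm, the immunoglobulin heavy chain gene of the list, went both ways, from -0.68 to 0.88. The groups did not overlap for 1 (12.5%), against 7.04% of all genes that were lower. This member is Cd74, described above with the MHC class II genes, so it is not a separate observation. Without control chow 3 the median was -0.12, with 3 of 8 positive. Per array the B cell score was -0.45, 0.08 and -0.15 in penicillin chow livers, against -0.04, 0.18 and 0.52 in control chow livers, and the groups overlapped. Cd79b, a subunit of the B cell receptor, differed by -0.31 ± 0.13. T and NK cell markers had a median difference of -0.10 (11 genes), dendritic cell markers -0.09 over 8, and neutrophil markers 0.03 over 6. The neutrophil median was -0.06, with 2 of 6 positive, without penicillin chow 1. Cholangiocyte markers had a median difference of -0.05, 4 of 8 positive, and of -0.17, 1 of 8 positive, without penicillin chow 1. Without the low-18S arrays their median was 0.17, with 5 of 8 positive. With all arrays the positive members were led by Krt8 at 0.40 ± 0.29. Of the negative ones, the bile duct transcription factor Sox9 differed by -0.26 ± 0.11, the claudin gene Cldn7 by -0.24 ± 0.11 and Epcam by -0.25 ± 0.14. Prom1, counted here among the female-biased genes and also a marker of bile duct cells, differed by -0.59 ± 0.19. The 2 erythroid, 4 adipocyte and 6 pancreatic acinar markers tested had medians of -0.06, 0.08 and -0.05.

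Receptors and adaptors for bacterial products were close to 0 as a group. Of 16 tested members of the lipopolysaccharide and bacterial product sensing list 6 were positive, and the median was -0.09. Of the 16, 2 did not overlap (12.5%, against 7.04% of all genes), both lower, 1 of them Pycard. Tlr5, the flagellin receptor, read 6.79, 7.22 and 7.25 in penicillin chow livers, against 7.40, 7.32 and 7.27 in control chow livers. Casp1, the protease that Pycard recruits, read 6.11, 5.95 and 5.66 in penicillin chow livers, against 6.28, 5.96 and 6.14 in control chow livers, with overlapping groups. Interferon-stimulated genes had 10 positive members of 28 and a median of -0.03, so Ifi27l2a stood apart from most of its list. Ifit2, which binds viral RNA, differed by -0.43 ± 0.16. Chemokines and inflammatory cytokines had a median difference of 0.02 (20 genes), which was -0.06 without penicillin chow 1 and 0.15 without the low-18S arrays. The chemokine gene Ccl4 was nearly the same in the penicillin livers, at 7.03, 7.03 and 7.02, against 6.48, 6.76 and 6.90 in control chow livers (difference 0.31 ± 0.10, adjusted p = 0.530).

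Of the 8 tested nuclear noncoding RNAs, Neat1, Malat1 and Meg3 stood low, and 0 passed the threshold. The groups did not overlap for these 3 (37.5%), against 7.04% of all genes that were lower. Neat1, the scaffold of paraspeckles, read 9.24, 9.80 and 8.89 in penicillin chow livers, against 10.72, 10.86 and 10.77 in control chow livers. Malat1, a transcript of nuclear speckles, read 10.21, 10.01 and 9.99 in penicillin chow livers, against 10.86, 10.73 and 10.56 in control chow livers. All penicillin livers lay below all controls in both, with differences of -1.47 ± 0.42 and -0.65 ± 0.12 (adjusted p = 0.515 and 0.197). The other probe set of Neat1 stood at 0.28, and those of Malat1 ranged from -0.54 to -0.17. Meg3, an imprinted transcript, read 7.63, 7.73 and 7.73 in penicillin chow livers, against 9.22, 9.04 and 7.79 in control chow livers, so control chow 3 was next to the penicillin livers. Its 10 other probe sets ranged from -1.55 to 0.32. The list of 8 had a median of -0.18, 3 of them positive. That median was -0.06 without penicillin chow 1 and -0.43 without the low-18S arrays. The snoRNA host genes Gas5 and Snhg1 differed by -0.17 ± 0.11 and -0.19 ± 0.20. The list's score was -0.20, -0.08 and -0.17 in penicillin chow livers, against 0.41, 0.26 and 0.15 in control chow livers.

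Acute-phase and complement genes, which hepatocytes secrete in inflammation, had 25 positive members of 27 and a median of 0.14. In penicillin chow 1, 22 of the 27 lay above all other arrays of the series. Saa1, serum amyloid A, read 13.76, 10.23 and 10.78 in penicillin chow livers, against 11.14, 11.89 and 9.56 in control chow livers. Outside penicillin chow 1 the livers of both groups overlapped. Without that liver the list's median was -0.03, with 9 of 27 positive. The score was 1.10, -0.33 and -0.24 in penicillin chow livers, against -0.14, 0.28 and -0.42 in control chow livers. Crp, C-reactive protein, was the 1 member (3.7%) whose groups did not overlap, against 4.79% of all genes that were higher. It read 13.17, 12.86 and 12.93 in penicillin chow livers, against 12.80, 12.83 and 12.69 in control chow livers.

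Penicillin chow 1 was also far from the other livers in genes outside that list. S100a8, a neutrophil protein, read 9.14, 5.70 and 4.88 in penicillin chow livers, against 5.35, 6.82 and 6.19 in control chow livers. The keratin gene Krt8, of hepatocytes and bile duct cells, read 13.01, 11.67 and 11.55 in penicillin chow livers, against 11.58, 11.80 and 11.63 in control chow livers. Mt2, a metal-binding protein induced by stress and named after its values were seen, read 14.00, 7.69 and 7.85 in penicillin chow livers, against 7.95, 9.27 and 7.61 in control chow livers. In each, penicillin chow 1 stood alone and the other 2 penicillin livers lay at or near the control range. None passed the threshold.

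Bile acid genes showed the same liver at the low end. The list had 7 positive members of 25 and a median of -0.12. Without penicillin chow 1 the median was -0.01, with 12 of 25 positive, and without the low-18S arrays it was -0.31. Cyp7a1, the rate-limiting enzyme of bile acid synthesis, read 8.48, 11.57 and 11.22 in penicillin chow livers, against 11.57, 12.40 and 10.91 in control chow livers. Cyp8b1, which makes cholic acid and was named after its values were seen, read 9.93, 12.42 and 11.82 in penicillin chow livers, against 11.89, 11.86 and 12.42 in control chow livers. Penicillin chow 1 was the lowest liver in both, and the other penicillin livers lay in or next to the control range. Cyp39a1, an oxysterol hydroxylase of the alternative route, differed by 0.90 ± 0.33 with overlapping groups, and Slc51b, a subunit of the basolateral bile acid exporter, by 0.22 ± 0.09.

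Of 26 fatty acid synthesis genes 20 were positive, with a median of 0.15. The groups did not overlap for 5 higher genes (19.2%, against 4.79% of all genes) and 1 lower gene (3.85%, against 7.04%). Per array the list's score was -0.23, -0.04 and -0.12 in penicillin chow livers, against -0.20, -0.19 and -0.47 in control chow livers. Penicillin chow 1 thus lay below control chow 1 and 2. Without the low-18S arrays the median was 0.10, with 15 of 26 positive. Acly, which makes cytosolic acetyl-CoA, read 12.13, 12.15 and 11.88 in penicillin chow livers, against 11.69, 11.66 and 11.24 in control chow livers. Acaca, acetyl-CoA carboxylase, read 9.68, 9.46 and 9.54 in penicillin chow livers, against 9.33, 9.34 and 8.99 in control chow livers. Me1, which supplies NADPH for the pathway, read 11.36, 11.91 and 11.41 in penicillin chow livers, against 10.96, 10.63 and 11.28 in control chow livers. The groups did not overlap in these 3 genes and missed the threshold by far, with an adjusted p of 0.618 each. The fatty acid elongase Elovl2 differed by 0.33 ± 0.12, and Agpat2, an acyltransferase of triglyceride synthesis, by -0.30 ± 0.13.

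Other lipid lists had medians near 0. Lipid droplet and PPAR gamma target genes had a median difference of -0.03 (25 genes). That median was 0.05, with 16 of 25 positive, without penicillin chow 1 and -0.14 without the low-18S arrays. The groups did not overlap for 1 higher member (4%, against 4.79% of all genes) and 3 lower members (12%, against 7.04%). Cidec, a lipid droplet fusion protein, read 7.04, 5.22 and 5.51 in penicillin chow livers, against 4.73, 4.83 and 4.80 in control chow livers, where it lies below the filter. G0s2, an inhibitor of triglyceride lipase, differed by -0.60 ± 0.21, and the droplet coat gene Plin5 by -0.33 ± 0.12. PPAR alpha targets had a median difference of -0.00 (29 genes), and among them Vnn1, pantetheinase, differed by 0.83 ± 0.27 with overlapping groups. Cholesterol synthesis genes had a median difference of -0.02 (20 genes) and apolipoproteins 0.01 over 17.

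Lists of sugar and amino acid metabolism lay near the median of all genes. Gluconeogenesis, glycolysis and glycogen genes had a median of 0.07 over 23. Pfkfb3, which makes the activator of phosphofructokinase, read 8.41, 8.02 and 8.34 in penicillin chow livers, against 7.56, 7.89 and 6.35 in control chow livers, and the gap of 0.99 ± 0.34 was widened by control chow 3. Pck1, the gluconeogenic carboxykinase, differed by 0.42 ± 0.22. Urea cycle and amino acid catabolism genes had a median difference of -0.07 (25 genes), among them Cth, of cysteine synthesis, at -0.27 ± 0.09. ER stress and ATF4 response genes had a median of 0.09 over 24, and of -0.05 without penicillin chow 1. Asns, asparagine synthetase, read 7.30, 8.37 and 7.13 in penicillin chow livers, against 9.17, 9.62 and 7.46 in control chow livers. Psat1, of serine synthesis, differed the other way by 0.28 ± 0.11.

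CAR and PXR targets had a median difference of 0.01 (36 genes), 4 of them (11.1%) not overlapping, all lower, near the 7.04% of all genes. Cyp2b10, the most used marker of the receptor CAR, overlapped at 8.64, 7.85 and 7.73 in penicillin chow livers, against 8.17, 7.90 and 8.39 in control chow livers. Cyp2c37 differed by -0.16 ± 0.09 and Ces2a by 0.39 ± 0.19. NRF2 targets had 13 positive members of 17 and a median of 0.10, which was 0.27 with 17 of 17 positive without control chow 3. Among them were Txnrd1, thioredoxin reductase, at 0.28 ± 0.11 and Srxn1, sulfiredoxin, at 0.60 ± 0.27. Penicillin chow 1 was the highest liver for both, and Srxn1 read 8.33 and 8.03 in the other 2 penicillin livers, against 8.01, 7.94 and 8.05 in control chow livers.

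Sex-biased and growth hormone genes varied within groups. Male-biased genes had a median difference of -0.13 (14 genes), or -0.03 without penicillin chow 1. Female-biased genes had a median of 0.03 over 15, or -0.08 without the low-18S arrays. The growth hormone, STAT5 and IGF list had a median of 0.04 over 15. Moxd1, a monooxygenase family member, had the largest difference of any gene tested, at -2.75 ± 0.97. It read 4.77, 5.37 and 4.54 in penicillin chow livers, against 9.48, 9.07 and 4.39 in control chow livers. The difference rests on control chow 1 and 2, since control chow 3 lay below every penicillin liver. Susd4, a complement regulator, differed by -0.49 ± 0.19 with control chow 3 likewise within the penicillin range, and the insulin-like growth factor binding proteins Igfbp2 and Igfbp3 by -0.29 ± 0.11 and -0.46 ± 0.14.

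All 28 tested cytosolic ribosomal protein genes were negative, with a median of -0.09. The groups did not overlap for 11 (39.3%), all lower, against 7.04% of all genes. Rpl11 differed by -0.16 ± 0.07 and Rps18 by -0.18 ± 0.07. After median centring of the arrays 1 of the 28 was positive, and with 18S as a covariate 2 were. Proteasome subunits had 27 positive members of 32 and a median of 0.05, with Psmd4 at 0.13 ± 0.07. Respiratory chain subunits had a median of -0.01 over 35, the circadian clock list 0.08 over 21, cell cycle genes -0.00 over 19 and iron genes -0.04 over 14. The circadian median was 0.15 without penicillin chow 1 and -0.01 without the low-18S arrays. Immediate early genes had a median of 0.12 over 18. Among them Ier2 differed by -0.42 ± 0.13, Zfp36, which destabilises cytokine mRNAs, by -0.34 ± 0.13, and Jun by 0.52 ± 0.22. The groups did not overlap for Ier2 and Zfp36, or 11.1% of the 18, near the 7.04% of all genes that were lower. Without penicillin chow 1 the median was -0.15, with 7 of 18 positive, and without the low-18S arrays it was 0.62, so penicillin chow 1 set its sign.

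The penicillin difference on chow was then set against that on high-fat diet with an interaction test, chow minus high-fat. It passed for 6 genes, or 0.0435% of those tested. For Rcan2 the high-fat difference was 1.29, and the interaction of -0.44 ± 0.15 did not pass (adjusted p = 0.649). For Ifi27l2a it did. Penicillin high-fat livers read 8.25, 8.13 and 7.99, against 7.84, 7.95 and 7.71 in control high-fat livers, a difference of 0.29 where that on chow was -0.68. The interaction was -0.97 ± 0.13 (adjusted p = 0.0323), and it passed in 3 of the 12 fits made with 1 array omitted. Cd36, a fatty acid receptor named after its values were seen, overlapped on chow at 9.21, 9.60 and 9.59 in penicillin chow livers, against 9.43, 9.52 and 9.36 in control chow livers. Its other probe sets differed by 0.07 ± 0.12 and 0.39 ± 0.14 on chow. Its high-fat difference was 1.24. Lifr, a receptor subunit for cytokines of the interleukin-6 family, differed by 0.18 ± 0.12 on chow and by -1.04 on high-fat diet, with other probe sets at -0.39 and 0.17 on chow.

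The other 3 genes that passed were dim on chow, so their penicillin difference there is uncertain. Hao2, a peroxisomal oxidase, read 4.64, 4.25 and 4.46 in penicillin chow livers, against 4.86, 4.91 and 5.09 in control chow livers. Its groups did not overlap, with a difference of -0.50 ± 0.15 (limma, adjusted p = 0.527). Cidea, a lipid droplet protein, and the organic anion transporter family member Slc22a27 had values on chow between 4.42 and 5.22. All lie near or below 5.0. On high-fat diet the list medians were -0.14 for macrophage markers, with 2 of 23 positive, -0.10 for MHC class II genes, -0.03 for endothelial markers and 0.00 for heat shock chaperones, with 12 of 23 positive. Stellate cell and fibroblast markers, lower on chow, had a median of 0.18 there, with 16 of 23 positive, and ribosomal protein genes had -0.09, as on chow. The difference between the diets was not tested for lists. The heat shock score of the high-fat arrays was 0.14, 0.25 and 0.16 with penicillin, against 0.41, 0.26 and -0.15 without, so the control chow livers lay below all 6 of them. No heat shock, macrophage, MHC class II or endothelial member was among the 6 genes of the interaction test, so their differences are not shown to depend on the diet.

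**Figure D5:**
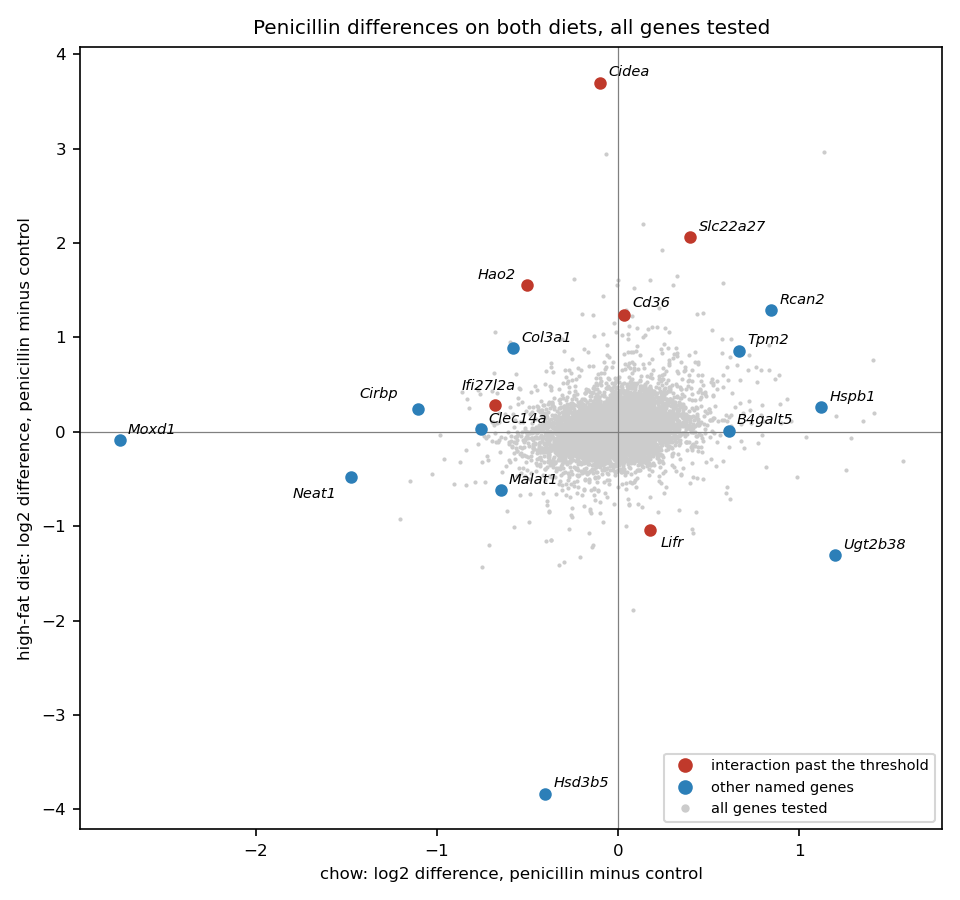
Penicillin minus control difference in log2 expression on chow (x axis) and on high-fat diet (y axis) for each gene tested, with the genes past the interaction test in red and other named genes in blue. Ifi27l2a lies at -0.68 on chow and 0.29 on high-fat diet, and Rcan2 lies above 0 on both.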

How the data were processed

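RNA of 12 mouse livers was hybridised to Affymetrix 3′ expression arrays, 1 array per mouse, as a biotin-labelled copy per the labels. The authors deposited log2 values for 45101 probe sets. Per the submitters' processing notes the tools were RMA and affy, with versions and build not given in the sources used here. Since RMA forces 1 intensity distribution on all arrays, a difference is relative to most genes. Names come from GEO's annotation of the platform: 34945 probe sets had 1 symbol, 932 several, 9160 none and 64 were controls. Of each gene's probe sets the one brightest on average over the 12 arrays stands for it (18193 genes), and 7912 of the 13788 genes tested have more than 1. The filter was the 40th percentile of all values (log2 5.0), passed on at least 3 arrays.

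Differences were tested with limma 3.58.1 (R 4.3.3), fitting a mean for each of 4 groups to all 12 arrays (8 residual degrees of freedom), eBayes and the Benjamini-Hochberg adjustment, at an adjusted p under 0.05, for penicillin within each diet and their interaction. The high-fat arrays enter the choice of probe set, the filter, the centring of list scores, the estimate of the spread and the comparison between diets. The chow differences themselves come from the chow arrays. The number of arrays limits the precision, with a median within-group SD of 0.13. Named genes are those past the threshold, the 15 higher and 15 lower with the largest difference among those with an unadjusted p under 0.01 and groups that do not overlap, and up to 5 members of each of 41 gene lists with the smallest p plus its first member. Calcineurin genes may always be named. The groups, lists and rule were chosen with earlier results of these data known. Alternatives covered the filter, probe sets, normalization, variance model, threshold, a replicate block, the 18S signal and leaving out each array. Promoter sequences are RefSeq's on GRCm38.p6.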

Additional observations from a re-analysis of the deposited data

Results flagged for a closer look

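The interaction test, the penicillin difference on chow minus that on high-fat diet, passed for 6 genes, each with n = 3 mice in all 4 groups. The value for Ifi27l2a, the interferon-inducible gene, was -0.97 (limma, adjusted p = 0.0323): all 3 penicillin livers lay below the controls on chow and above them on high-fat diet. For Cd36, the fatty acid receptor, it was -1.21 (adjusted p = 0.0323), with overlapping groups on chow and all 3 penicillin livers above the controls on high-fat diet. For the cytokine receptor subunit Lifr it was 1.22 (adjusted p = 0.0323), with overlapping groups on chow and all 3 penicillin livers below the controls on high-fat diet. Hao2 gave -2.06 (adjusted p = 0.0114), Cidea -3.80 (adjusted p = 0.0389) and Slc22a27 -1.66 (adjusted p = 0.0418). These 3 lie near or below the filter on chow, where the penicillin difference is uncertain. With 1 array omitted in turn, 12 fits in all, the call held in 9 for Hao2, 6 for Cd36 and 4 for Lifr. It held in 3 for Ifi27l2a, 3 for Slc22a27 and 2 for Cidea. With the 18S signal as a covariate Hao2 alone of the 6 passed, and with the replicate block Hao2 and Lifr did, so the calls of Ifi27l2a and Cd36 were lost under both. With the mean of a gene's probe sets Lifr was lost and Pigp passed.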

How the results depend on the processing

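Rcan2 kept its direction under all 25 alternatives, but many of these cannot change its chow difference. Among these are the filters, the variance model, the threshold, the replicate block and leaving out a high-fat array. Its call held in 7 of the 13 alternatives other than those leaving out 1 array. The looser threshold of 0.1 is among the 7, and a gene past 0.05 cannot fail it. The counts of higher, lower and interaction genes (1, 0 and 6 as reported) were 0 higher with the mean of a gene's probe sets (Rcan2 adjusted p = 0.346), with median centring (0.0511), with only the 6 chow arrays (0.256) and with 18S as a covariate (0.0845), which also left 1 interaction gene, Hao2. The replicate block gave 0 higher and 2 interaction genes, Hao2 and Lifr (Rcan2 adjusted p = 0.132). Same-numbered chow livers correlated at -0.05, -0.23 and -0.04 in their deviations from group means. With 3 livers per group these values cannot decide whether the numbers pair the mice. Array weights gave 15 interaction genes, and a threshold of 0.1 gave 1 lower gene, Ifi27l2a. Leaving out the 3 low-18S arrays gave 139 higher, 112 lower and 24 interaction genes. That fit has 1 penicillin chow liver, penicillin chow 1, which is assumed to vary like the other groups, so these counts compare that liver with the controls, and Rcan2 missed the threshold in it (0.0545).

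Leaving out 1 array gave 0 to 1 higher, 0 to 4 lower and 0 to 10 interaction genes. The 4 lower genes came without control chow 3 (B3galnt1, Cav1, Meg3 and Moxd1), and 1 lower gene, Fabp7, without penicillin chow 1. The interaction count was 0 without penicillin chow 3, control chow 2 or penicillin high-fat 1, 1 without penicillin high-fat 3 or control high-fat 1 or 3, 3 without penicillin chow 1 or 2, 8 without control chow 1, 7 without penicillin high-fat 2 and 10 without control chow 3.

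Of 3036 values of 122 genes over these settings 3004 kept their direction, and the 32 that turned belong to 12 genes, none past the chow threshold. Settings that leave the chow difference unchanged keep every direction by construction, so the share kept does not measure robustness. Without 1 array the chow difference ranged from -0.088 to 0.021 for Col1a1, -0.36 to 1.40 for Saa1, -0.83 to 1.30 for S100a8, -0.51 to 2.65 for Mt2, -1.18 to 0.061 for Cyp8b1, -0.063 to 0.67 for Krt8, -0.34 to 0.12 for Cidea, -0.037 to 0.16 for Cd36, -0.37 to 0.090 for Cyp2b10 and -0.016 to 0.0028 for Alb. With the mean of probe sets Col1a1 stood at 0.023 and Lifr at -0.017, with cyclic loess Alb at 0.0047 and with median centring at 0.0044. Array weights gave 0.036 for Col1a1, -0.090 for Saa1, -0.41 for S100a8 and 0.084 for Cidea. With 18S as a covariate Col1a1 was 0.028, Cidea 0.19 and Cyp2b10 0.14, and without the low-18S arrays Ctss was 0.016, Cd36 -0.22 and Cyp2b10 0.49. The cause of these changes was not tested.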

Other observations

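Probe sets with no gene symbol or with several were tested together with the named ones. Of 28067 probe sets in that fit 4268 had no single symbol, 0 of these passed the threshold (limma), and their smallest adjusted p was 0.149.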
